A study of Homo sapiens with 8 samples.

Results

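The STEAP metalloreductases STEAP2 and STEAP3 and the kinesin KIF7 were followed here in a table of m6A peaks from thyroid cancer cells. N6-methyladenosine (m6A) is an internal mark of mRNA, and a peak is a stretch in which RNA fragments pulled down by an m6A antibody stand out over the input. All peaks whose gene name is STEAP2, STEAP3 or KIF7 were taken, called or not, which gave 6 of the 10987 peaks and 3 of the 7081 named genes in the authors' deposited table. STEAP2 had 1 peak, STEAP3 had 2 and KIF7 had 3, at 5 separate places in the genome. Peaks were picked by gene name alone, but the 3 genes were chosen with earlier results of these data known. The table's own annotation gives both STEAP genes ferric-chelate reductase and cupric reductase activity and places KIF7 in the KEGG Hedgehog pathway.

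STEAP proteins are membrane enzymes that reduce ferric iron and cupric copper, so that transporters can move the reduced ions into the cytosol. STEAP3 does this in the endosomes in which transferrin releases its iron, and it is also known as a target of p53 that takes part in vesicle secretion. STEAP2 cycles between the Golgi, the plasma membrane and endosomes and was first described in prostate cancer. KIF7 is a kinesin of the primary cilium that acts with SUFU on the GLI transcription factors, the last step of Hedgehog signalling, and it is known both to restrain and to promote the pathway. METTL3 is the catalytic subunit of the nuclear enzyme that writes m6A on mRNA, mostly near stop codons and in 3' UTRs. A published report on papillary thyroid carcinoma described METTL3-dependent m6A on STEAP2 mRNA and placed STEAP2 upstream of the Hedgehog pathway. The labels do not say whether these libraries belong to that work.

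The cells were BCPAP, a human papillary thyroid carcinoma line, either labelled control or carrying a METTL3 knockdown. Each condition had 2 input libraries without antibody and 2 libraries immunoprecipitated with an anti-m6A antibody, 8 libraries in 4 groups. The knockdown libraries carry the titles sh1 and sh3, and neither the control construct nor the depth of METTL3 loss is given in the labels. The titles also carry a letter, A for sh1 and its control and B for sh3 and its control. What the letters mean is not stated. A difference between sh1 and sh3 cannot be told apart from a difference between A and B. METTL3 has 0 peaks in the table, so the knockdown itself was not checked here.

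The values are the authors' own comparison of the 2 conditions, with 1 log2 fold change, p-value and false discovery rate (FDR) per peak. Values of single libraries and read counts were not analysed here, so no replicate spread can be given and the depth is unknown. The header does not say which condition is the reference. Here "higher" means more m6A in the knockdown, and the reverse reading would turn every direction. A peak was called at an FDR under 0.05. At this threshold 17.1% of all peaks were called, 10.6% as lower and 6.52% as higher. The median log2 fold change of all peaks was -0.24 in the authors' deposited table, so values are also given after this shift was subtracted. Coordinates are on GRCh38, and the table has no strand.

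Of the 6 peaks, 2 were called, both higher after METTL3 knockdown, and 0 were called lower. They were the 3' UTR peak of STEAP3 and the widest 3' UTR peak of KIF7. Of all peaks 17.1% were called, and of all 3' UTR peaks 21.8%. With 6 peaks a difference from these shares was not tested. The single STEAP2 peak was not called. By sign alone, 4 of the 6 values were positive and 2 negative, while 55.3% of all peaks were negative. The plot of the 6 peaks by region sets each against all peaks with the same region label.

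**Figure D1:**
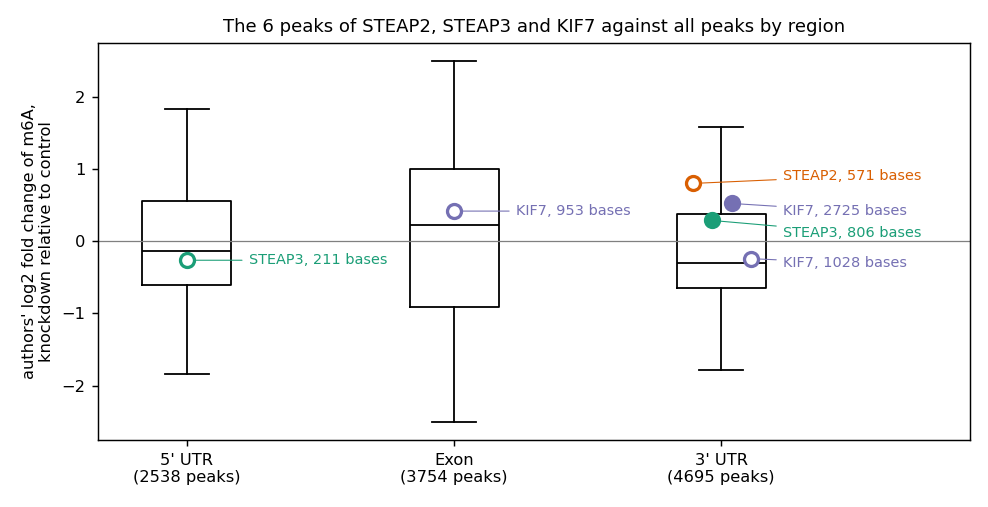
Authors' log2 fold change of m6A (vertical axis, knockdown relative to control) for the 6 peaks of STEAP2, STEAP3 and KIF7, by region label. Boxes show the quartiles and median of all peaks of a region and whiskers the 5th to 95th percentile; filled circles were called at an FDR under 0.05. The 2 filled circles, KIF7 at 0.52 and STEAP3 at 0.29, lie above the median of 3' UTR peaks, -0.30.

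STEAP2 had its peak in the 3' UTR of transcript ENST00000287908 (ENSG00000157214, chromosome 7, 90236733 to 90237303, 571 bases). The gene lies on the plus strand, and the peak sits 79.8% of the way along its RefSeq bounds. It is clear of other annotated genes: a non-coding gene, LOC107986819, begins 283 bases beyond it. Its log2 fold change was 0.80, equal to 1.74-fold, in the authors' deposited table. The authors' deposited table gave it p = 0.0708 (FDR 0.277), so it was not called in either direction. With the median of all peaks subtracted the value was 1.04.

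The size of the STEAP2 value was the largest of the 6, while its p-value was larger than those of 4 others. Its log2 fold change exceeded that of 87.1% of the 3' UTR peaks, yet 55.7% of them had a smaller p in the authors' deposited table. Values of this size were often not called. Of 776 3' UTR peaks with an absolute log2 fold change within 20% of that of STEAP2, 134 (17.3%) were called, against 21.8% of all 3' UTR peaks. The sign of the STEAP2 value rests on the reading of the reference condition, and under the reverse reading it would be negative. Since it was not called under either, no direction is set here beside the published account of METTL3-dependent m6A on STEAP2. STEAP2 mRNA level and stability, which that account also concerns, were not measured by this table. A gene with 1 peak is the commonest case in the table, at 66.9% of named genes.

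STEAP3, the endosomal reductase, had 2 peaks on transcript ENST00000393106 (ENSG00000115107, plus strand), 1 labelled 3' UTR and 1 labelled 5' UTR. The 3' UTR peak lies on chromosome 2 from 119263893 to 119264698 (806 bases), 96.8% of the way along the gene, and no other RefSeq gene overlaps it. It was higher, with a log2 fold change of 0.29, equal to 1.22-fold, in the authors' deposited table. The authors' deposited table gave it p = 0.000162 (FDR 0.00447). The change is small, since the called higher 3' UTR peaks of the table had a median of 0.41 and quartiles of 0.27 and 0.77. Its p was smaller than that of most 3' UTR peaks, with 9.73% of them below it. Called 3' UTR peaks were mostly lower: 5.94% of all 3' UTR peaks were called higher and 15.9% lower.

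The 5' UTR peak of STEAP3 is shorter (chromosome 2, 119245471 to 119245681, 211 bases). It lies 21640 bases from the transcript start, 52.0% of the way along the gene, and inside the bounds of the antisense gene STEAP3-AS1 (119244422 to 119249071). Without strand, reads of STEAP3 and of STEAP3-AS1 cannot be told apart there. Its log2 fold change was -0.26, equal to 0.833-fold (p = 0.0933, FDR 0.318), in the authors' deposited table, and it was not called; 16.8% of all 5' UTR peaks were. With the median of all peaks subtracted it stood at -0.03, against 0.52 for the 3' UTR peak. A difference between the 2 peaks of STEAP3 was not tested. Of 289 genes with exactly 1 3' UTR and 1 5' UTR peak, 43 (14.9%) had the signs of STEAP3, positive at the 3' end and negative at the 5' end. The opposite signs were found in 89 of these genes, negative values at both ends in 103 and positive values at both in 54.

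KIF7 is encoded on the minus strand of chromosome 15 (ENSG00000166813) and had 3 peaks. The widest, in the 3' UTR of ENST00000558928, runs from 89627464 to 89630188 and spans 2725 bases, wider than 82.9% of all peaks. It was higher, with a log2 fold change of 0.52, equal to 1.44-fold (p = 5.50e-06, FDR 0.000282), in the authors' deposited table. Among 3' UTR peaks, 4.90% had a smaller p, and the value was 0.76 with the median of all peaks subtracted. The second 3' UTR peak (89627977 to 89629004, 1028 bases) lies wholly inside the first. Its log2 fold change had the other sign, -0.24, equal to 0.846-fold (p = 0.0219, FDR 0.143), in the authors' deposited table. Nested peaks of 1 gene with opposite signs were uncommon: of 423 nested pairs with the same gene identifier, 43 (10.2%) had them. After the median of all peaks was subtracted, the inner peak stood at -0.007, and with the median of 3' UTR peaks subtracted it turned positive, at 0.054. The wide and inner peaks are centred 74.8% and 75.6% of the way along the RefSeq bounds of KIF7. On the minus strand these bounds end at 89617309, so neither peak lies at the end of the bounds. Where each KIF7 transcript ends was not examined. Either peak may therefore still lie at the end of a transcript, as the 3' UTR label has it. For both, the distance to the start of ENST00000558928 is given as 0.

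The third KIF7 peak lies in exon 12 of the 19 exons of ENST00000394412 (chromosome 15, 89632827 to 89633779, 953 bases). Its distance of 21688 bases to the transcript start places that start at 89655467, the same base as the KIF7 transcript start in the RefSeq promoter table, inside the gene's RefSeq bounds, whose 5' end on the minus strand is at 89663049. The log2 fold change was 0.42, equal to 1.34-fold (p = 0.00537, FDR 0.0589), in the authors' deposited table, just outside the threshold. With Benjamini-Hochberg values recomputed from the authors' p-values over all 10987 peaks its FDR was 0.0289, under the threshold; the same recomputation raised the share of all peaks called from 17.1% to 24.2%. With the median of all peaks subtracted, its log2 fold change was 0.65. The median of exon peaks was positive, however, at 0.23, and with that median subtracted the value was 0.19. The deposited value exceeded that of 56.7% of exon peaks. Of exon peaks, 12.4% had a smaller p, and 11.5% of exon peaks were called.

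The 3' part of KIF7 overlaps that of TICRR, which encodes Treslin, a factor needed to start DNA replication. TICRR is read from the plus strand, and the RefSeq bounds of both genes share 10715 bases. Both KIF7 3' UTR peaks reach into the bounds of TICRR, the wide one by 560 bases and the inner one by 47 bases. The table also assigns TICRR 3' UTR peaks beyond the RefSeq end of that gene, at 89628023. One of these (89629495 to 89630298, 804 bases) shares 694 bases, 86.3% of its length, with the wide KIF7 peak. It was higher, with a log2 fold change of 1.38, equal to 2.60-fold (FDR 4.79e-06) in the authors' deposited table.

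The wide KIF7 peak spans a left part that holds the inner KIF7 peak, at -0.24, and a right part that overlaps the TICRR peak, at 1.38 in the authors' deposited table. The inner KIF7 peak and this TICRR peak share no base. The other TICRR peaks were not called: 0.31 just to the left of the wide KIF7 peak (1612 bases, FDR 0.200), 0.49 to its right (450 bases, FDR 0.290) and -1.13 at the 5' UTR (121 bases, FDR 0.302) in the authors' deposited table. Since the table gives no strand, the 3' UTR signal of KIF7 and of TICRR cannot be told apart. The exon 12 peak is clear of TICRR, beginning 1770 bases past the end of its last peak. Of the 4 member peaks that share no base with TICRR, 1 was called, the 3' UTR peak of STEAP3. The map of the KIF7 and TICRR peaks shows these positions.

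**Figure D2:**
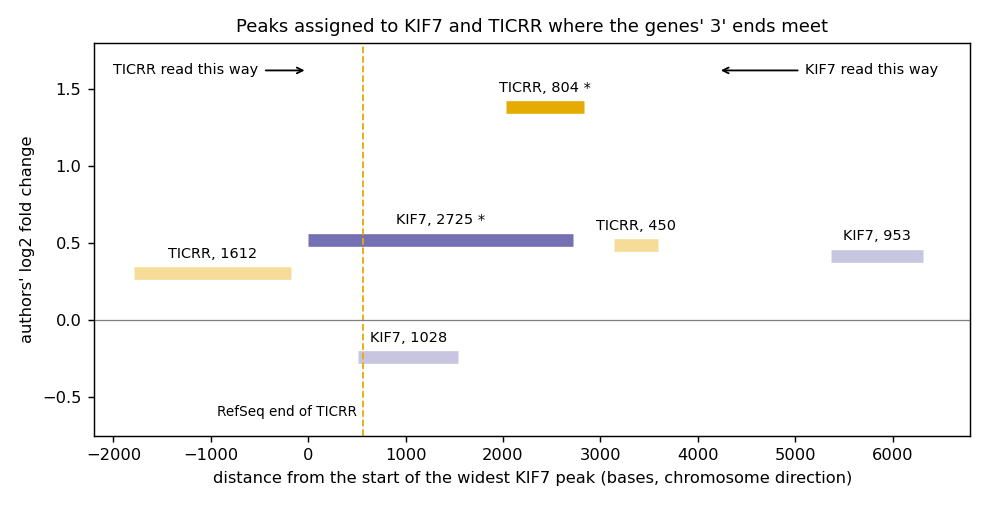
Peaks assigned to KIF7 (purple) and TICRR (yellow) around the RefSeq end of TICRR, which lies inside KIF7, with the distance in bases from the start of the widest KIF7 peak (horizontal) and the authors' log2 fold change (vertical). Labels give the width in bases, an asterisk and full colour mark an FDR under 0.05, and the dashed line is the RefSeq end of TICRR. The inner KIF7 peak of 1028 bases lies below 0 while the wide one, at 0.52, and the TICRR peak of 804 bases, at 1.38, lie above.

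Peaks of both signs within 1 gene, as in STEAP3 and KIF7, were frequent. They were found in 1120 of 2343 genes with at least 2 peaks (47.8%) and in 335 of 529 genes with 3 peaks (63.3%). Calls in both directions were rare, with 46 of 1579 genes that had any called peak (2.91%), and neither STEAP3 nor KIF7 was among them. The plot of change against p-value places the 6 peaks among all others: the called STEAP3 and KIF7 peaks have smaller changes than STEAP2 but smaller p-values.

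**Figure D3:**
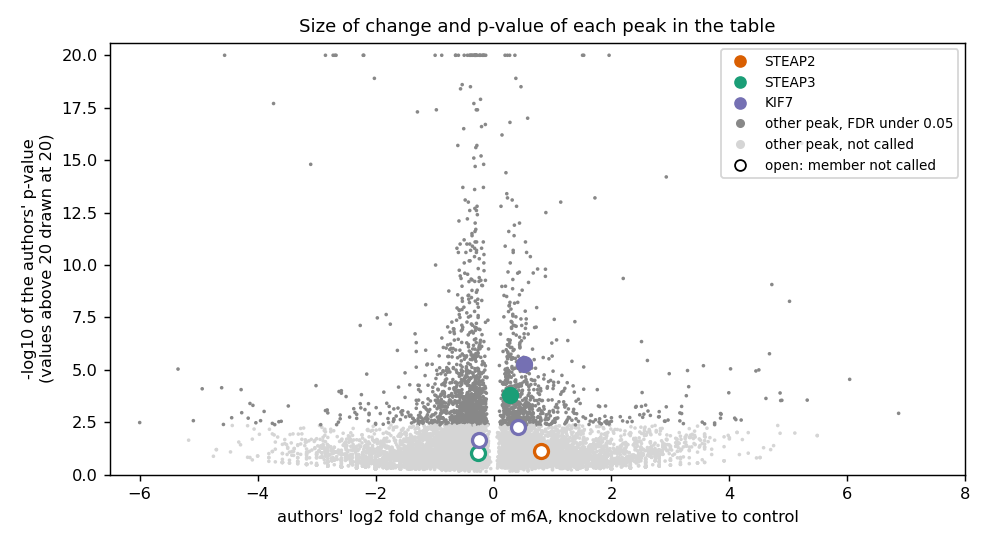
Authors' log2 fold change (horizontal) against -log10 of the authors' p-value (vertical, values above 20 drawn at 20) for all 10987 peaks. Dark grey points were called at an FDR under 0.05, and open circles are peaks of STEAP2, STEAP3 or KIF7 that were not called. STEAP2 lies farthest right of the 6, at 0.80, but low on the p axis.

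The Hedgehog pathway gives the setting of KIF7. A list of 66 pathway genes, KIF7 among them, was used with 1 peak for each gene, chosen by its smallest p. Of these, 32 were in the table, with 4 lower, 3 higher and 25 not called (21.9% called), against 22.3% of all 7081 named genes, 14.0% lower and 8.26% higher. The share called is close to that background. The higher genes include KIF7 itself, by its wide 3' UTR peak, whose signal cannot be told apart from that of TICRR. The median of the 32 was -0.39, against -0.25 over all named genes. The 7 called values kept their sign when the median of all peaks was subtracted.

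Among ligand release and receptor genes, 0 of 4 in the table were called, against 22.3% of all named genes. PTCH1, the Hedgehog receptor and itself a transcriptional target of the pathway, had 5 peaks from -2.05 to 3.11 in the authors' deposited table, with FDRs from 0.135 to 0.454. DISP1 and DISP2, proteins of the family that releases the ligand, had -0.58 and 1.34 (FDRs 0.294 and 0.219) in the authors' deposited table. GLI1 has 0 peaks.

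Of 9 GLI factors and regulators in the table, KIF7 was the 1 that was higher and 2 were lower, against 8.26% and 14.0% of all named genes. The lower ones were the paralogous ubiquitin ligase subunits BTRC and FBXW11, which direct processing of GLI proteins. BTRC had -0.45 (FDR 0.0123) and FBXW11 had -0.81 (FDR 0.0162), both in 3' UTRs, in the authors' deposited table. SUFU, the partner of KIF7 that holds GLI proteins inactive, had 0.26 in its 3' UTR and -0.35 in an exon (FDRs 0.239 and 0.316), in the authors' deposited table. GLI3, the main GLI repressor, had 0.30 in its 3' UTR (FDR 0.0851) in the authors' deposited table.

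Of 11 kinases and modulators, CSNK1A1, a kinase that phosphorylates GLI proteins and SMO, was higher and 0 were lower, against 8.26% and 14.0% of all named genes. The 5' UTR peak of CSNK1A1 had 0.18 (FDR 0.0263) and 1 of its 3' UTR peaks 0.68 (FDR 0.0398), while another 3' UTR peak that was not called had -0.33 (FDR 0.0912), in the authors' deposited table. The called 3' UTR peak lies wholly inside a slightly wider 3' UTR peak of CSNK1A1 that was not called, at 0.37 (FDR 0.216). An exon peak, not called either, had 1.34 (FDR 0.157), and the annotation there names an exon of a different gene identifier. Of 6 cilium traffic genes, 1 was lower and 1 higher, against 14.0% and 8.26% of all named genes. With so few genes in each role these shares were not tested. KIF3A, a subunit of the kinesin that carries cargo into the cilium, was lower at -0.56 (FDR 0.0288) in the authors' deposited table. That KIF3A peak is labelled exon and spans 12950 bases. The KIF3A peaks that were not called had -0.615 in the 3' UTR and 0.51 in the 5' UTR (FDRs 0.243 and 0.392). INPP5E, a lipid phosphatase of the ciliary membrane, was called in both directions, with 0.68 in its 5' UTR (FDR 0.0200) and -0.46 in its 3' UTR (FDR 0.0389) in the authors' deposited table. Of 2 pathway targets in the table, CCND1 was lower, against 14.0% of all named genes. Its peak with the smallest p, in the 3' UTR, had -0.32 (FDR 8.32e-06) in the authors' deposited table. This is close to the median of 3' UTR peaks, -0.30, and with the median of all peaks subtracted it was -0.08. All 5 CCND1 peaks were called lower as deposited, but 1 of them, at -0.15 (FDR 0.00575), turned to 0.08 after that subtraction. BCL2 was not called, at -0.76 (FDR 0.336).

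All 6 genes of the kinesin-4 family, to which KIF7 belongs, were in the table, and KIF7 was the 1 that was called (16.7%, against 22.3% of all named genes). That call is the wide 3' UTR peak, whose signal cannot be told apart from that of TICRR. KIF21A and KIF21B, motors that act on microtubule growth, had 0.94 (FDR 0.0871) and 1.18 (FDR 0.112) in the authors' deposited table. KIF4A, a motor of the mitotic chromosomes, had -0.62 (FDR 0.191) and its retrogene copy KIF4B had 1.26 (FDR 0.240) in the authors' deposited table; reads of such copies can be placed on either. KIF27, the closest relative of KIF7, had 3 exon peaks from -3.04 to -1.14 with FDRs from 0.158 to 0.520 in the authors' deposited table. For 2 of these the annotation names an exon of a different gene identifier.

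Iron and copper handling genes give the setting of the STEAP enzymes. Of 48 listed genes reported here, 12 were in the table, with 3 lower, 4 higher and 5 not called, so that 58.3% were called against 22.3% of all named genes. The number of genes is small and the share was not tested. The 7 called values kept their sign with the median of all peaks subtracted. STEAP2 and STEAP3 were the only listed STEAP genes with peaks; STEAP1, STEAP1B and STEAP4 have 0 each.

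On the uptake side, SLC11A2, the transporter DMT1 that carries ferrous iron out of the endosome after reduction by STEAP3, was lower. Its 3' UTR peak had -0.54, equal to 0.689-fold (FDR 6.92e-06) in the authors' deposited table. It and the STEAP3 3' UTR peak were called in opposite directions. Of 10 listed storage and chaperone genes, 2 were in the table and both were lower, while 14.0% of all named genes were called lower. With so few genes the share was not tested. NCOA4, the receptor that delivers ferritin for degradation, had -0.60 (FDR 0.0263) and the copper chaperone ATOX1 had -0.30 (FDR 0.0219) in the authors' deposited table. The ATOX1 value, from a 3' UTR peak, is close to the median of 3' UTR peaks, -0.30. With the median of all peaks subtracted it was -0.06. The NCOA4 exon peak that was not called had 0.099 (FDR 0.0977) in the authors' deposited table.

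Of 4 mitochondrial genes, 3 were higher and 1 was not called, while 8.26% of all named genes were called higher; with so few genes the share was not tested. The mitochondrial iron importers SLC25A37 and SLC25A28 (mitoferrins) were higher in their 3' UTRs, at 0.67 (FDR 3.63e-08) and 0.17 (FDR 0.0112) in the authors' deposited table. ISCU, the scaffold on which iron-sulfur clusters form, was higher at 0.48 (FDR 0.0324) in the authors' deposited table. HMOX1, the haem-degrading oxygenase, had -1.07 in its 5' UTR and 0.64 in an exon (FDRs 0.164 and 0.225), in the authors' deposited table. The plot of both lists by role shows all of these genes with KIF7, STEAP2 and STEAP3.

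**Figure D4:**
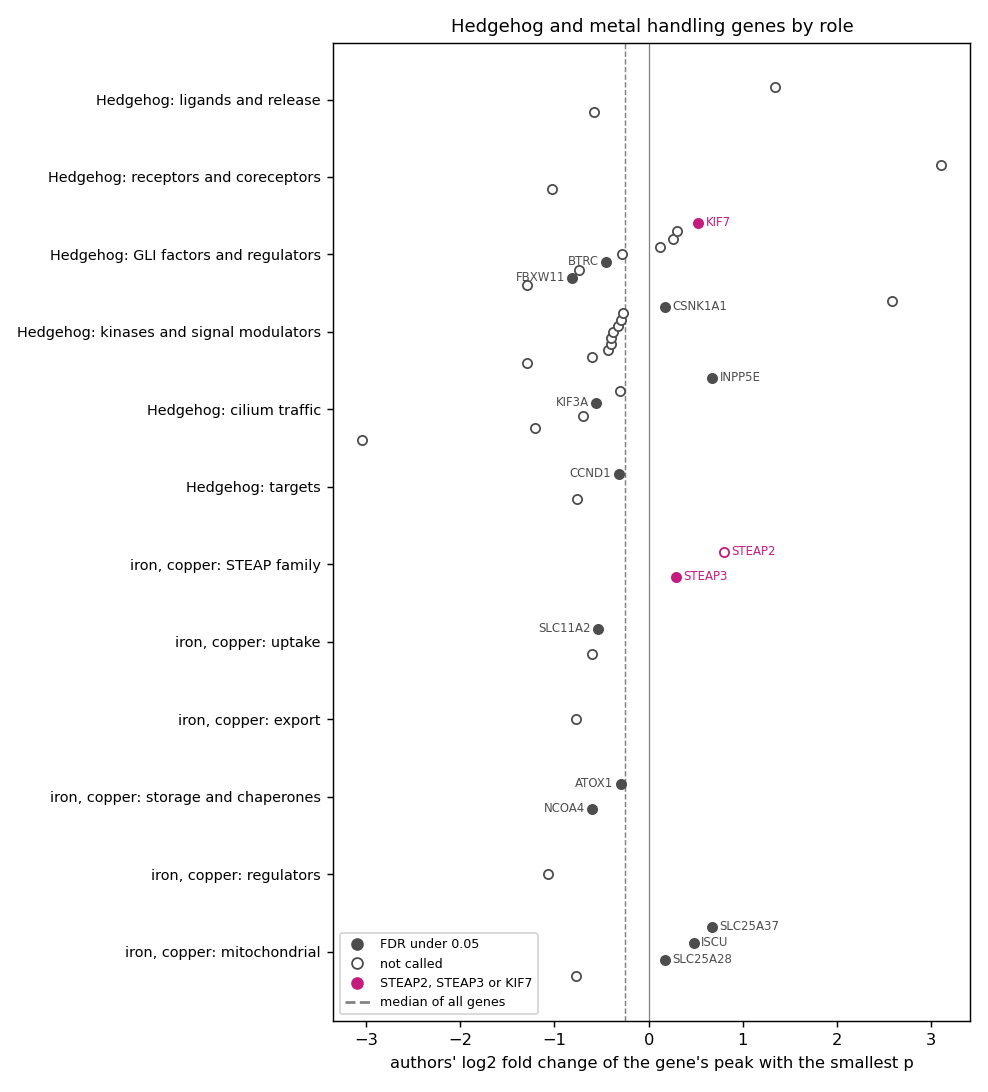
Authors' log2 fold change (horizontal) of the peak with the smallest p for each listed gene in the table, by role (vertical); filled circles were called at an FDR under 0.05 and the dashed line is the median of all named genes, -0.25. KIF7 lies above 0 at 0.52 while the called BTRC and FBXW11 lie below, and STEAP3, at 0.29, lies opposite SLC11A2, at -0.54.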

How the data were processed

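Fragmented poly(A) RNA was immunoprecipitated with an m6A antibody and sequenced (MeRIP-seq) by the submitters in 8 BCPAP libraries, 2 each of control and METTL3 knockdown input and immunoprecipitate; whether both libraries of a group are separate cultures is not stated in the labels. Tools listed in the submitters' processing notes, with no role, are edgeR, StringTie, ChIPseeker, HOMER, HISAT2 and fastp, beside the genome builds hg38 and GRCh38. The differential caller, its filters and any pooling of sh1 and sh3 are not given in these sources, so a small FDR need not mean agreement between libraries.

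The log2 fold change and the p-value of each peak are the authors' deposited values, per the file headers. The FDR comes from a score that the authors deposited as a log10, which was raised to the linear scale here. Positions in bases are the authors'. Widths and shared bases count every base from the first to the last of a peak. Whether introns lie within a peak was not examined. The depth per library is unknown.

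All peaks of STEAP2, STEAP3 and KIF7 were described. For lists, 1 peak per gene, that with the smallest p, was kept; any called list gene could be named, at most 4 per role with the largest change, and uncalled genes with values only. INPP5E, CSNK1A1, CCND1 and PTCH1 extra peaks, TICRR and the nested pairs were chosen after their values were seen. One item of the iron and copper list is not reported here. Members and lists were chosen with earlier results of these data known. Gene bounds, strands and transcript starts came from RefSeq tables of GRCh38.p14, in which 3 of 3 members matched. Overlap meant at least 1 shared base. No genome sequence was used here, so the sequence under the peaks and its m6A motifs were not analysed. No member peak reached a RefSeq promoter window of its gene. For KIF7 that window lies at the start at 89655467. The start of ENST00000558928, to which both KIF7 3' UTR peaks have a distance of 0, was not covered by it. Alternatives were other thresholds, recomputed Benjamini-Hochberg values, subtraction of the median of all peaks or of the region, gene bounds, and the KEGG Hedgehog term. The software was matplotlib 3.10.9, scipy 1.17.1, numpy 2.4.6, pandas 2.3.3 and Python 3.11.15; the adjustment and overlap steps were tested on simulated data.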

Additional observations from a re-analysis of the deposited data

How the results depend on the processing

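No paired analysis was possible because the table holds 1 authors' comparison and no values of single libraries; leaving out a replicate could not be run for the same reason. The sequence motif search was not run, since no genome was used. The 2 called peaks and their direction were kept at an FDR under 0.01 or 0.1, with recomputed values, with p under 0.01 and after either median was subtracted. The count fell to 1 with an added absolute log2 fold change of at least 0.5 (KIF7 left), and to 1 among peaks clear of other genes or without KIF7 peaks that share bases with TICRR (STEAP3 left; both chosen after seeing the data). The KIF7 exon 12 peak, at 0.42, was called at an FDR under 0.1, with recomputed Benjamini-Hochberg values and with p under 0.01. The inner KIF7 peak turned to 0.054 when the median of 3' UTR peaks was subtracted. The share of all peaks called rose from 17.1% to 24.2% with recomputed values, to 24.0% at an FDR under 0.1 and to 22.5% with p under 0.01, and fell to 9.24% at an FDR under 0.01 and to 7.73% with the fold threshold. Hedgehog genes called numbered 7, and 11 at an FDR under 0.1, 2 under 0.01, 12 with recomputed values and 4 with the fold threshold; with the KEGG term in place of the list, 5 were lower and 2 higher of 25. Iron and copper genes called fell from 7 to 3 at an FDR under 0.01 and to 3 with the fold threshold. Kinesin-4 genes called rose from 1 to 2 at an FDR under 0.1, with recomputed values and with p under 0.01. The members' peaks formed 5 places under either overlap rule. With 2 libraries per group and no counts, the precision of each value is unknown.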

Other observations

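The table runs through the chromosomes in order and then starts again, with 305 peaks in the second stretch. The inner KIF7 3' UTR peak, the KIF7 exon 12 peak and the called TICRR peak of 804 bases stand in this stretch, and the wide KIF7 peak and all STEAP2 and STEAP3 peaks in the first. Of the second stretch 13.8% were called, against 17.2% of the first, and 39.3% of its peaks overlapped another peak, against 15.2%. What separates the stretches is not given in the sources used here.

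Peaks assigned to different gene identifiers overlapped in 201 pairs, as the wide KIF7 peak and the TICRR peak do. Of these pairs 38 (18.9%) had opposite signs, against 7.22% of 831 overlapping pairs of the same gene identifier.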
